A study of Mus musculus with 24 samples.

Results

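Markers of the CA1, CA2 and CA3 pyramidal neurons of the hippocampus were followed in an inducible Tsc1 knockout. The 9 genes were taken by name as known markers of these subfields, out of 55385 genes counted. They were Wfs1, Fibcd1, Pou3f1 and Mpped1 for CA1, Rgs14 and Amigo2 for CA2, and Bok, Coch and Nectin3 for CA3.

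RNA from the hippocampus of 24 adult mice of both sexes was sequenced, 4 mice in each of 6 groups. All mice carried Tsc1 fl/fl alleles and received tamoxifen. Controls (Tsc1-Cre-) lacked the Camk2a-CreERT2 transgene and were taken on day 8 after the start of tamoxifen. Tsc1-Cre+ mice carried it and were taken on day 4, day 6, day 8 or day 13 with no drug, and the Rap 4 group was Tsc1-Cre+ mice given rapamycin at 10 mg/kg from day 4 and taken on day 13. The Camk2a promoter limits Cre to CAMK2A-expressing neurons, so other cells of the tissue kept Tsc1. All groups were compared with the same day 8 controls.

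The hippocampus proper is divided along its pyramidal cell layer into CA3, which receives mossy fibers from the dentate gyrus, CA1, which receives the Schaffer collaterals of CA3 and sends the main output, and the small CA2 between them. Each subfield expresses its own set of genes in the adult, and these genes are used to draw its borders in tissue sections. CA2 pyramidal neurons are known for their resistance to the induction of synaptic plasticity and to damage by seizures.

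Total counts per mouse ranged from 50460565 to 61083014 in controls, 56239855 to 60914278 on day 4, 51363380 to 62429111 on day 6 and 53564370 to 59124484 on day 8. They ranged from 38423852 to 126435936 on day 13 and from 28208561 to 54924199 in Rap 4 mice. Levels are given as CPM, the counts of a gene scaled to a common library size after TMM normalization over the 24 mice, in the order of mice A to D. The lowest count of any of the 9 genes in any mouse was 126. The targeted gene Tsc1 was at 109, 103, 106 and 103 CPM in controls and at 57.4, 59.0, 68.9 and 68.9 CPM on day 13. Every Tsc1-Cre+ mouse lay below every control for Tsc1.

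All 9 genes were detected in all 24 mice, and all 9 passed the filter on low counts in every comparison. Per kilobase of exon, control levels were highest for Mpped1, at 36.7 ± 4.55 CPM per kb (SD, n = 4). Fibcd1 followed at 28.9 ± 4.74 CPM per kb and Wfs1 at 24.6 ± 1.26 CPM per kb. Bok stood at 20.6 ± 1.95 CPM per kb and Rgs14 at 19.3 ± 1.70 CPM per kb. The control ranges of neighbours in this order overlapped from Mpped1 to Rgs14. Pou3f1, Amigo2 and Nectin3 were lower, at 7.97 ± 0.553, 6.51 ± 0.389 and 5.41 ± 0.470 CPM per kb, and Coch was lowest at 1.82 ± 0.604 CPM per kb. The tissue was a whole hippocampus, so fewer cells of a subfield and less RNA per cell cannot be told apart in any of these values.

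Each group was compared with the controls by the quasi-likelihood test of edgeR over all genes, and a gene was called at a Benjamini-Hochberg adjusted p under 0.05 with an absolute log2 fold change over 0.5. On day 13, 2 of the 9 markers were called, Pou3f1 and Rgs14, both higher, against 16.5% of all 24920 genes tested by edgeR. DESeq2 called 3, adding Fibcd1, and its own share of all genes is not given here. No marker was called on day 4, where 0.680% of genes were, on day 6, where 1.32% were, on day 8, where 3.99% were, or in Rap 4 mice, where 1.41% were. At an unadjusted p under 0.05, edgeR gave 2 of 9 markers on day 4, 2 on day 6, 4 on day 8 and 2 in Rap 4 mice, against 18.4%, 24.2%, 28.9% and 18.1% of all genes, and DESeq2 called 0 in each of the 4 comparisons. Between Rap 4 and day 13 mice, 3 of 9 were called, Wfs1, Pou3f1 and Rgs14, all lower in Rap 4, against 21.1% of genes. A share of 2 or 3 in 9 is near these backgrounds and is no result about the markers as a list. Day 13 and day 8 mice differed in 0 of 9 markers by edgeR on these 8 mice, 4 at an unadjusted p under 0.05 (14.1% of all genes) and 0 by DESeq2. That comparison called 0% of genes by edgeR, and DESeq2 called 238 genes. The edgeR fit with all 24 mice called 1343 genes there and 1 marker, Wfs1.

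On the adjusted p alone, with no minimum fold change, the called markers were Pou3f1 on day 6, when 10.1% of genes passed, and Rgs14 on day 8, when 13.3% did. Pou3f1, Rgs14 and Amigo2 passed on day 13, when 26.9% of genes did. Wfs1 alone passed in Rap 4 mice against controls, when 3.57% did, and no further marker passed between Rap 4 and day 13 mice, when 30.8% did. Over the alternatives, 918 values of a marker were recomputed, of which 24 lost a pass on the adjusted p and 31 gained one. Rgs14 on day 8 had a log2 fold change of 0.36. Its edgeR adjusted p was 0.0746 with the letter of the mouse as a block (log2 fold change 0.35). After scaling to neuron-wide genes it was 0.110 (0.29, or 0.39 relative to the all-gene median). It was over 0.05 without any 1 mouse other than control mouse A or day 8 mouse D. The highest was 0.119, without control mouse C (0.30). The pass held with the file-name number as a block (0.0445), with all 24 mice in one fit (0.0409) and in DESeq2 (0.00863). It also held with DESeq2 size factors (0.0406) and with no filter on low counts (0.0233). With all 24 mice in one fit the edgeR adjusted p was 0.0929 for Pou3f1 on day 6 and 0.395 for Wfs1 in Rap 4 mice. Their log2 fold changes there were 0.465 and -0.337, against 0.455 and -0.336 in the main fit. After scaling to neuron-wide genes the edgeR adjusted p of Amigo2 on day 13 was 0.103. Its log2 fold change went from 0.40 to 0.25, or 0.43 relative to the all-gene median. Among the gains, Wfs1 on day 8 passed after that scaling (0.0183), without day 8 mouse B (0.00328), with no filter on low counts (0.0276) and in DESeq2 (0.0161). Pou3f1 and Amigo2 on day 8 passed in DESeq2 (0.0434 and 0.0246), as did Amigo2 on day 4 (0.00898), and Nectin3 on day 4 passed with the letter as a block (0.0424). A test for any difference among the 6 groups in all 24 mice gave 6 of 9 markers at an adjusted p under 0.05, against 41.9% of 27110 genes. The comparisons with controls share the same 4 control mice. In the names of the deposited files, a leading number splits the controls and the day 8 mice alike into 2 series, and no mouse of another group carries either number. Time point and series therefore cannot be told apart for day 4, day 6, day 13 and Rap 4 mice.

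**Figure D1:**
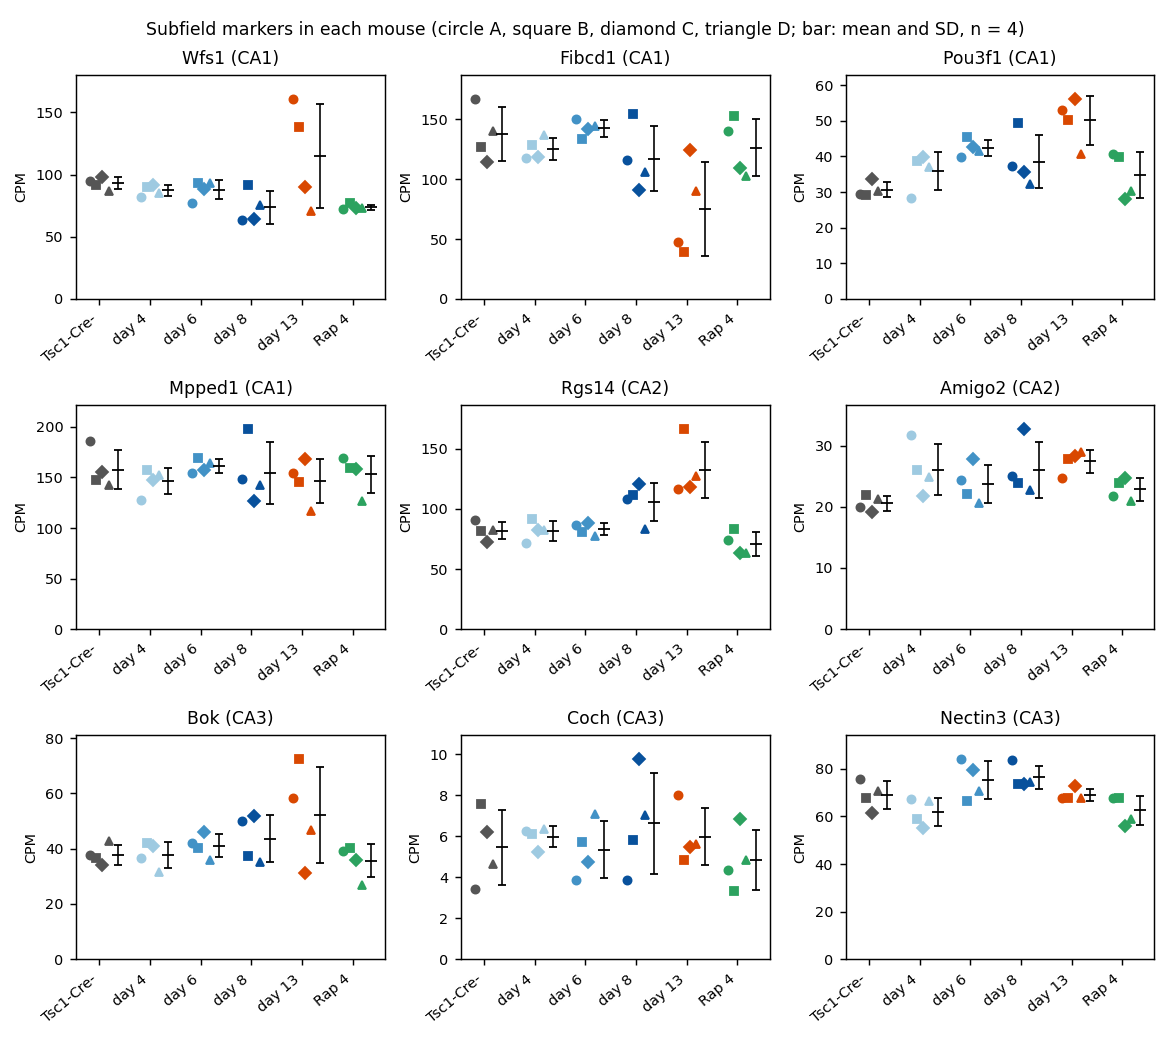
Level of each marker in CPM (vertical axis, from 0) in each mouse of the 6 groups (horizontal axis), with the letter of the mouse given by the symbol and the mean and SD of the 4 mice by the bar. Pou3f1 and Rgs14 lay above all controls in the 4 day 13 mice, while Wfs1 and Fibcd1 spread widely among the day 13 mice.

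Among the CA1 markers, Pou3f1 encodes a POU domain transcription factor (ENSMUSG00000090125.3, a single exon on the plus strand of GRCm38, chr4:124656807-124660655). Its level was 29.4, 29.2, 33.8 and 30.4 CPM in the 4 controls, 28.3, 38.6, 39.8 and 36.9 CPM on day 4 and 39.8, 45.4, 42.6 and 41.6 CPM on day 6. On day 8 it was 37.2, 49.4, 35.5 and 32.2 CPM and on day 13 53.1, 50.4, 56.2 and 40.6 CPM. All 4 day 6 mice and all 4 day 13 mice lay above every control, while day 4 mouse A lay below them and day 8 mouse D lay within their range. In Rap 4 mice it was 40.6, 39.8, 28.2 and 30.4 CPM, with mice A and B above every control, mouse C below and mouse D within their range. The log2 fold change against controls was 0.69 on day 13 (95% interval 0.46 to 0.92, edgeR adjusted p = 0.00210). On day 6 it was 0.46 (edgeR adjusted p = 3.59e-04), short of the fold threshold, and without control mouse C it was 0.51 and called. On day 4 and day 8 it was 0.23 and 0.32 (edgeR adjusted p = 0.206 and 0.0961), and within the series of day 8 mice it was 0.53 and 0.068. The day 13 call held with each of the 8 mice left out in turn.

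Between Rap 4 and day 13 mice, the log2 fold change of Pou3f1 was -0.52 (edgeR adjusted p = 0.0223), close to the fold threshold. It was -0.50 without day 13 mouse A, -0.47 without day 13 mouse C, -0.42 without Rap 4 mouse C and -0.46 without Rap 4 mouse D, and not called in these 4 fits. After scaling to neuron-wide genes it was -0.26 (edgeR adjusted p = 0.143), or -0.54 relative to the all-gene median, and not called. Rap 4 mouse A and day 13 mouse D, the lowest of its group, were both at 40.6 CPM. Without day 13 mice A and B, left out together in a fit chosen after the values were seen, the value was -0.48 and not called. The antisense gene Gm2164 shares 330 exon bases with Pou3f1 on the opposite strand, and since the strand setting of the counting is not given in the sources used here, their reads may be mixed. Gm2164 stood at 0.849 to 1.40 CPM in controls and 1.07 to 1.82 CPM on day 13, far below Pou3f1. The 3 protein-coding genes nearest to Pou3f1 in log2 CPM relative to the control mean over the 24 mice, of 13909 compared, were Tlnrd1, Ccdc85b and Irf2bpl, with root mean square differences of 0.103, 0.143 and 0.144.

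Wfs1 encodes wolframin, a membrane protein of the endoplasmic reticulum that is lost in Wolfram syndrome, and Fibcd1 encodes a membrane receptor with a fibrinogen domain. The bases before their RefSeq start sites are shown because the levels of the pair lay on opposite sides of the controls in day 13 mice A and B. The 250 bases come from the RefSeq promoter table for GRCm38.p6, which held 7 of the 9 markers, and are given on the minus strand, that of both genes, for Wfs1 at chr5:36988983-36989232 and for Fibcd1 at chr2:31846006-31846255. The Wfs1 gene of GENCODE M21 starts at base 36989205, inside its window, so most of that window lies within the GENCODE gene. Capitals mark matches, on either strand, to TGACG, the core of the cAMP response element.
Wfs1: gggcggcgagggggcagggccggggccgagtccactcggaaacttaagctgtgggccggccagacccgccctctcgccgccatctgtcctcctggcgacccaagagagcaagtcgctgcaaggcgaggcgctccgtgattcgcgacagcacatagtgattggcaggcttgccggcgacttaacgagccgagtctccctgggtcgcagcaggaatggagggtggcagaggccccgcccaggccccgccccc
Fibcd1: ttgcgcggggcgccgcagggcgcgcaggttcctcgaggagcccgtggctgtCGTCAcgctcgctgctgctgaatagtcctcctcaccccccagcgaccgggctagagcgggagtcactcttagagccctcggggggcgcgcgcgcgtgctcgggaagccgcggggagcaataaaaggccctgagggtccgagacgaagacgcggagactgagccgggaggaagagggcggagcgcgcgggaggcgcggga
TGACG was found for Fibcd1 at 1 place, 199 bases before the start and on the opposite strand, and not for Wfs1, and 17.8% of the 32851 windows of this length held it. The full element TGACGTCA, which holds the core and was found in 1.55% of windows, and the E-box CACGTG, found in 6.02%, were in neither. These matches describe the letters of the window.

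Wfs1 was at 95.1, 92.0, 98.1 and 86.9 CPM in controls, 82.1, 90.1, 91.8 and 85.0 CPM on day 4 and 77.5, 93.1, 88.1 and 93.0 CPM on day 6. These 3 groups overlapped. On day 8 it was 63.6, 91.5, 64.2 and 75.1 CPM, with mice A, C and D below every control and mouse B inside their range. On day 13 it was 161, 139, 89.9 and 70.7 CPM, with mice A and B above every control, mouse C among them and mouse D below. In Rap 4 mice it was 71.9, 76.8, 72.9 and 73.0 CPM, all 4 below every control. The log2 fold change was -0.35 on day 8 (95% interval -0.58 to -0.12, edgeR adjusted p = 0.0503), and -0.31 and -0.42 within the pair of series. In Rap 4 mice it was -0.34 (95% interval -0.44 to -0.23, edgeR adjusted p = 0.00259), which passed the adjusted p but not the fold threshold, and it stayed within -0.37 to -0.31 with each mouse left out.

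On day 13 the log2 fold change of Wfs1 against controls was 0.28 (95% interval -0.20 to 0.76, edgeR adjusted p = 0.350). It ranged over 0.080 to 0.46 with each mouse left out in turn, and was called in none of these fits. Mice A and B share a number series and are the deepest libraries of the group, at 69971957 and 126435936 counts. Without both, in a fit chosen after the values were seen, the day 13 value of Wfs1 turned to -0.22 (edgeR adjusted p = 0.128). Between Rap 4 and day 13 mice it was -0.63 (edgeR adjusted p = 0.0449). That call was lost without day 13 mouse A (-0.44), day 13 mouse B (-0.55) or any Rap 4 mouse (A -0.62, B -0.65, C -0.62 or D -0.62), and without day 13 mice A and B together the value was -0.12. It was also lost after scaling to neuron-wide genes, at -0.37 (edgeR adjusted p = 0.184; -0.66 relative to the all-gene median), and with the letter of the mouse as a block, at -0.56 (edgeR adjusted p = 0.0581). Between day 13 and day 8 mice Wfs1 was at 0.63 (edgeR adjusted p = 0.319), not called, and at 0.65 and called with all 24 mice in one fit (edgeR adjusted p = 0.0155).

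Fibcd1 was at 167, 127, 115 and 140 CPM in controls, 118 to 137 CPM on day 4 and 134 to 150 CPM on day 6. On day 8 it was 116, 155, 90.8 and 106 CPM. These groups overlapped, though day 8 mice C and D lay below every control. On day 13 it was 47.5, 39.0, 124 and 90.0 CPM, with mouse C inside the control range, mouse D below it and mice A and B far below. In Rap 4 mice it was 140, 152, 110 and 102 CPM, with mice A and B inside the control range and mice C and D below it. The log2 fold change on day 13 was -0.89 (95% interval -1.62 to -0.15), the widest interval of the 9 markers in that comparison, and was not called (edgeR adjusted p = 0.0725). DESeq2 called it at -0.87 (adjusted p = 0.0210), as did edgeR without day 13 mouse C at -1.22 (adjusted p = 0.0128). Without mice A and B it was -0.36 (edgeR adjusted p = 0.132). Between Rap 4 and day 13 mice it was 0.76 (edgeR adjusted p = 0.104), not called. There it was 1.10 and called without day 13 mouse C (edgeR adjusted p = 0.0142), and 0.24 without mice A and B.

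**Figure D2:**
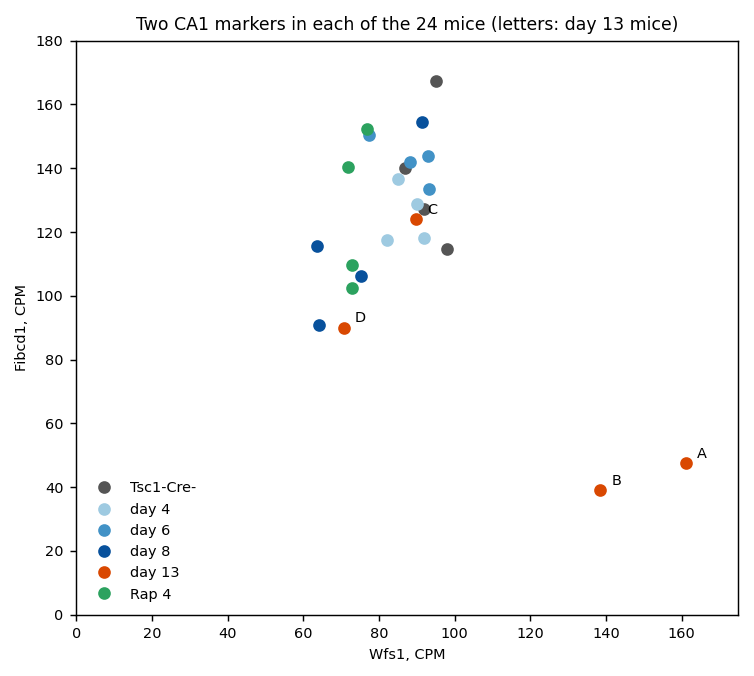
Fibcd1 (vertical axis, CPM) against Wfs1 (horizontal axis, CPM), 1 point per mouse, colored by group, with letters on the day 13 mice. Day 13 mice A and B lie apart from the other 22 mice, at the highest Wfs1 and the lowest Fibcd1 levels.

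Some of the other marker lists also set day 13 mice A and B apart in their sums. The 10 dentate granule cell markers summed to 654 to 703 CPM in controls and to 356, 324, 528 and 558 CPM on day 13, lowest in mice A and B. On day 8 they summed to 515, 480, 511 and 716 CPM. Of the 10, 4 were called lower on day 13 and 0 higher, where 16.5% of all genes were called, with a median log2 fold change of -0.70 against -0.040 over all genes. Prox1, the most abundant of them and a regulator of granule cell identity, was at 131, 108, 119 and 111 CPM on day 13 against 124 to 141 CPM in controls. Plk5 was at 21.1 to 24.5 CPM in controls and 0.246, 0.179, 2.22 and 1.70 CPM on day 13 (log2 fold change -4.62, edgeR adjusted p = 0.00195), and Trpc6, a cation channel gene, had a log2 fold change of -1.35. The 5 other CA3 markers summed to 279 to 324 CPM in controls and 390, 384, 316 and 332 CPM on day 13, and the 5 endothelium markers to 137 to 165 and 184, 177, 156 and 137 CPM, both highest in mice A and B. The 8 interneuron markers summed to 379 to 413 CPM in controls and 565, 564, 433 and 382 CPM on day 13, with a median log2 fold change of -0.073 (-0.040 over all genes) and 1 called, the neuropeptide gene Npy, at 81.7, 101, 26.0 and 25.3 CPM on day 13 (2.38 on the log2 scale). The 5 astrocyte markers summed to 1286 to 1359 CPM in controls and 1723, 2206, 1571 and 1593 CPM on day 13, with mouse A nearer to mice C and D than to mouse B, a median log2 fold change of 0.0017 (-0.040 over all genes) and 1 called, the filament gene Gfap, at 751, 1356, 372 and 437 CPM on day 13 (1.91 on the log2 scale). Without Gfap, a sum taken after the values were seen, the other 4 came to 1077 to 1177 CPM in controls and 972, 849, 1199 and 1156 CPM on day 13, lower in mice A and B, and the 7 interneuron markers without Npy came to 369 to 402 and 483, 464, 407 and 356 CPM, higher in mice A and B. On day 8, Gfap was at 681, 127, 900 and 158 CPM and Npy at 32.9, 9.47, 62.7 and 7.30 CPM, highest in mice A and C, which were also the lowest for Wfs1. Gad1 and Slc1a3, the most abundant of the interneuron and astrocyte lists by the mean of the 24 mice, were not called, and Gfap was above Slc1a3 in day 8 mice A and C and day 13 mice A and B. The 6 immediate early genes of neuronal activity did not split the mice in this way, at 693, 431, 1074 and 99.95 CPM in sum against 154 to 202 CPM in controls, with 3 called higher and a median log2 fold change of 1.85 (-0.040 over all genes). No marker of these 6 lists was at 0 in any mouse, and their part in the values of Wfs1 and Fibcd1 was not tested.

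Mpped1, which encodes a metallophosphoesterase domain protein, overlapped the controls in every group. It ranged over 142 to 186 CPM in controls and 117 to 168 CPM on day 13, with a log2 fold change of -0.13 (95% interval -0.40 to 0.14, edgeR adjusted p = 0.449).

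Of the CA2 markers, Rgs14 encodes a regulator of G protein signaling that restrains synaptic potentiation in CA2 neurons (ENSMUSG00000052087.14, plus strand, chr13:55369732-55384687). It was at 90.5, 81.7, 72.8 and 82.5 CPM in controls, 71.4 to 92.1 CPM on day 4 and 77.3 to 88.1 CPM on day 6. Up to day 6 the groups overlapped. On day 8 it was 108, 112, 121 and 83.5 CPM, with mice A, B and C above every control and mouse D among them. On day 13 it was 116, 167, 119 and 128 CPM, all 4 above every control. In Rap 4 mice it was 74.5, 83.5, 63.4 and 63.0 CPM, all 4 below every day 13 mouse and overlapping the controls. The log2 fold change was 0.36 on day 8 (edgeR adjusted p = 0.0427), under the fold threshold, and 0.33 and 0.36 within the pair of series. Against controls it was -0.20 in Rap 4 mice (edgeR adjusted p = 0.240), with mice C and D below every control. It was 0.67 on day 13 (95% interval 0.41 to 0.93, edgeR adjusted p = 0.00355) and -0.88 between Rap 4 and day 13 mice (95% interval -1.17 to -0.60, edgeR adjusted p = 0.00138). Both calls held with each mouse left out in turn and without day 13 mice A and B, where the day 13 value was 0.59.

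The 3 protein-coding genes nearest to Rgs14 over the 24 mice were Mapk8ip1, Svop and Zfand2a, with root mean square differences of 0.121, 0.122 and 0.124 in log2 CPM relative to the control mean. Day 13 and day 8 mice were not shown to differ in Rgs14 (log2 fold change 0.31, 95% interval 0.0047 to 0.61, edgeR adjusted p = 0.352).

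Amigo2 encodes a cell adhesion protein with leucine-rich repeats and was at 19.9, 21.8, 19.2 and 21.3 CPM in controls. It was at 31.8, 26.0, 21.7 and 24.8 CPM on day 4, 20.7 to 27.9 CPM on day 6 and 24.98, 23.9, 32.7 and 22.7 CPM on day 8. On day 13 it was 24.8, 27.8, 28.3 and 29.0 CPM. All 4 day 8 mice and all 4 day 13 mice lay above every control, and so did day 4 mice A, B and D and day 6 mice A, B and C. In Rap 4 mice it was 21.7, 23.96, 24.7 and 20.9 CPM, with mice B and C above every control and mice A and D within their range. The log2 fold change was 0.40 on day 13 (95% interval 0.21 to 0.58), which passed the adjusted p (edgeR adjusted p = 0.00883) but not the fold threshold. On day 4, day 6 and day 8 it was 0.34, 0.19 and 0.33, with edgeR adjusted p = 0.0726, 0.160 and 0.0680. With 1 mouse left out these values ranged over 0.23 to 0.42, 0.11 to 0.25 and 0.20 to 0.39. Amigo2 passed the edgeR adjusted p on day 4 without day 4 mouse C (0.0347) and on day 8 without day 8 mouse D (0.0367). The gene Pced1b overlaps it by 58 exon bases on the opposite strand and stood at 1.61 to 3.65 CPM on day 13 against 3.13 to 4.14 CPM in controls, lower in day 13 mice A, B and C than in every control.

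The 6 other CA2 markers lay on both sides of 0. On day 13, 1 of them was called higher and 1 lower, where 16.5% of all genes were called, with a median log2 fold change of -0.35 against -0.040 over all genes. Ntf3, a neurotrophin gene, was at 6.33, 5.27, 5.69 and 5.40 CPM in controls and 1.61, 1.26, 1.99 and 1.597 CPM on day 13, with every day 13 mouse below every control (log2 fold change -1.84, edgeR adjusted p = 2.91e-04). Avpr1b, a vasopressin receptor gene, was at 0.550, 0.534, 0.582 and 0.536 CPM in controls and 1.66, 1.86, 0.852 and 0.862 CPM on day 13 (log2 fold change 1.25, edgeR adjusted p = 0.0115). Necab2, the most abundant, had a log2 fold change of 0.45, short of the fold threshold (edgeR adjusted p = 0.00747).

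**Figure D3:**
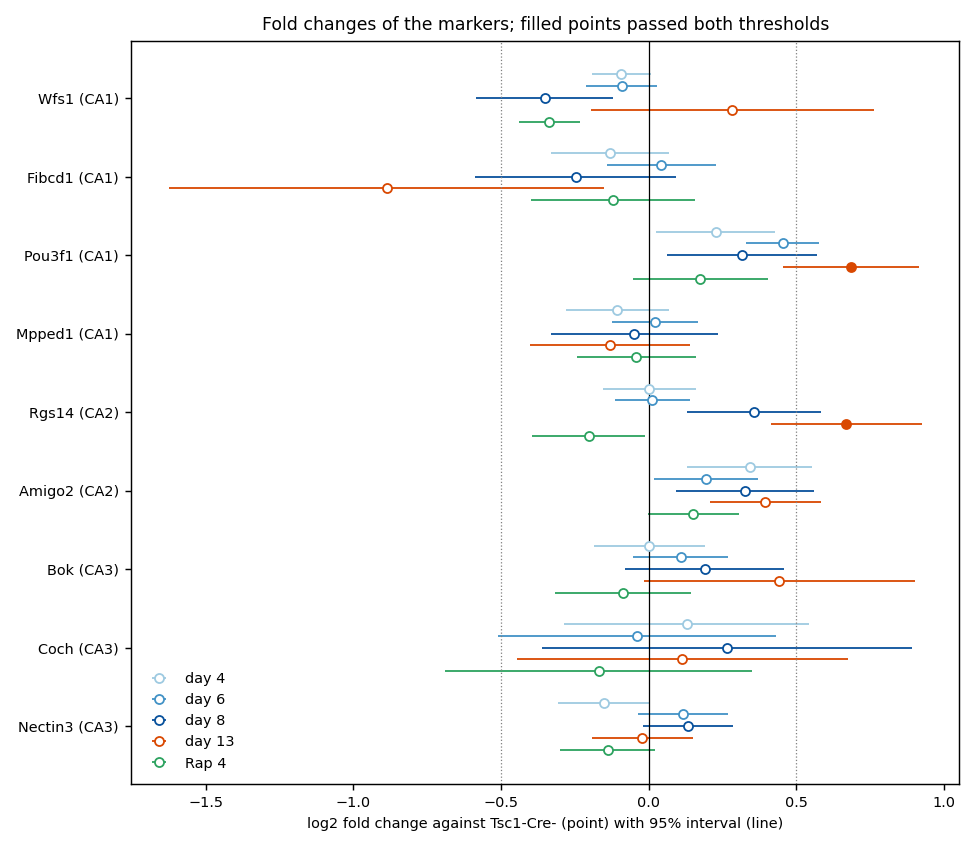
Log2 fold change against controls (horizontal axis) of each marker (vertical axis) on day 4, 6, 8 and 13 and in Rap 4 mice, with 95% intervals as lines, the fold threshold as dotted lines and filled points where both thresholds were passed. The filled points are Pou3f1 and Rgs14 on day 13, and the widest interval on day 13 is that of Fibcd1.

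Of the CA3 markers, Bok encodes a member of the BCL2 family of cell death regulators. It was at 37.9, 36.5, 34.2 and 42.7 CPM in controls and 58.3, 72.4, 31.2 and 46.9 CPM on day 13, with mouse C below every control and mice A, B and D above. It ranged over 35.2 to 51.7 CPM on day 8, with mice A and C above every control, and over 27.0 to 40.2 CPM in Rap 4 mice, and overlapped the controls in each group. Its log2 fold change on day 13 was 0.44 (95% interval -0.017 to 0.90, edgeR adjusted p = 0.136), not called. Without day 13 mouse C it was 0.65 and called (edgeR adjusted p = 0.00913), and without mice A and B it was 0.044.

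Coch, the gene of the matrix protein cochlin, was the lowest of the 9 in counts, with 3.41 to 7.55 CPM in controls and 4.83 to 8.03 CPM on day 13. It overlapped the controls in every group. Its log2 fold change on day 13 was 0.11, with a 95% interval of -0.45 to 0.68 that reaches past the fold threshold on the higher side. Nectin3, the gene of an adhesion protein of synaptic and other cell contacts, was at 75.7, 67.9, 61.4 and 70.8 CPM in controls, 83.8, 73.8, 73.6 and 74.5 CPM on day 8 and 67.7, 67.7, 72.6 and 67.6 CPM on day 13. It overlapped the controls in every group, and its 95% interval on day 13 was -0.19 to 0.15. Over the 6 groups Nectin3 passed the test for any difference (edgeR adjusted p = 0.0135), with the highest mean on day 8 and the lowest on day 4, but none of the 7 pairs of groups fitted called it. Day 8 and day 4 mice were not such a pair. Of the 5 other CA3 markers, 0 were called on day 13 by edgeR or DESeq2, and 4 had an unadjusted p under 0.05 in edgeR, against 40.5% of all genes, 3 of them higher and 1 lower. Their median log2 fold change was 0.30 against -0.040 over all genes, and Spock1, the most abundant, had 0.30.

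The order of the group means placed day 13 highest for Wfs1, Pou3f1, Rgs14, Amigo2 and Bok and lowest for Fibcd1 and Mpped1. For Mpped1 the means were nearly equal, at 146.2 CPM on day 13 and 146.5 CPM on day 4. For Wfs1, day 13 mice C and D lay below the control mean of 93.0 CPM. Neighbours in that order overlapped for every marker, with 1 exception, Wfs1 between day 4 and Rap 4 mice. The share of all genes with such a gap, or with day 13 at an end of the order, is not given here. The order is therefore no result about the markers as a list. For Rgs14 the order ran from day 13 through day 8, day 6, day 4 and controls to Rap 4.

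**Figure D4:**
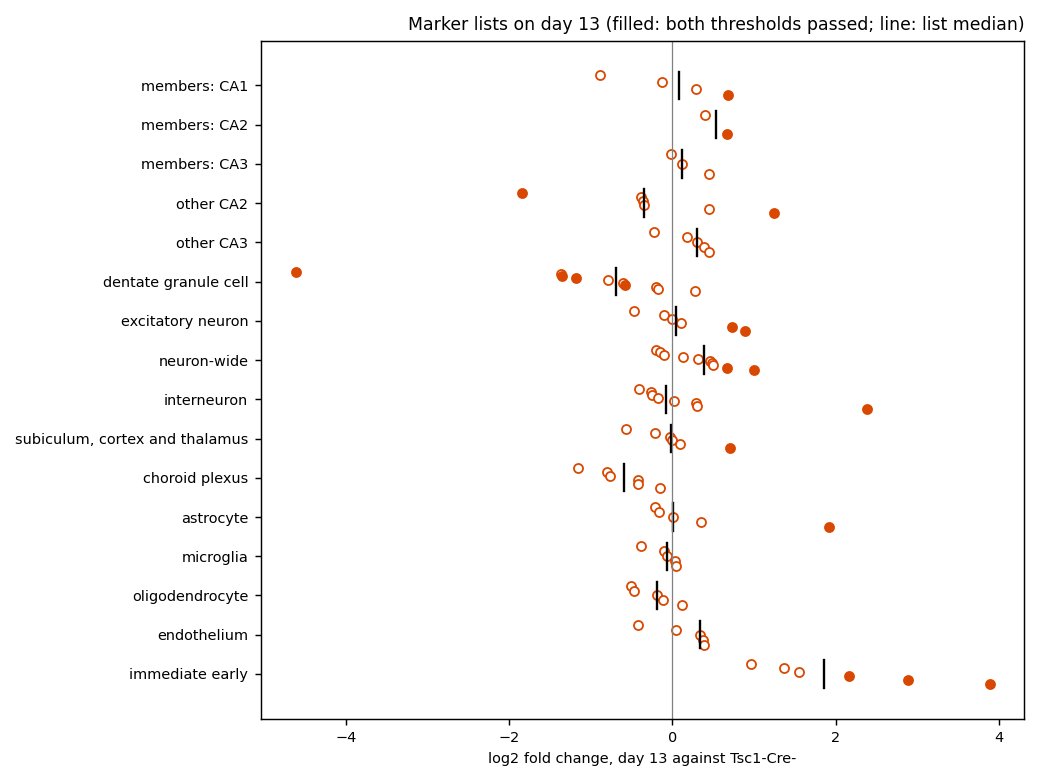
Log2 fold change on day 13 against controls (horizontal axis) of every gene in the marker lists (vertical axis), 1 point per gene, filled where both thresholds were passed, with the list median as a line. Of the 9 markers the filled points are Pou3f1 and Rgs14, and 4 points of the dentate list are filled, all below 0.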

How the data were processed

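Per the labels and methods, the authors trimmed reads with cutadapt 1.16.5, aligned them with STAR 2.7.2b to GRCm38 and deposited read counts per gene from featureCounts 1.6.4, without normalization (tool versions from the submitters' processing notes). The strand setting and the handling of reads with several alignments are not given in the sources used here. Gene names came from GENCODE M21 (the study used M24), in which 55144 of 55385 identifiers were found. Each pair of groups was fitted on its own 8 mice with edgeR 4.0.16 (R 4.3.3; quasi-likelihood F test), after filterByExpr and TMM, p-values were adjusted by Benjamini-Hochberg over every gene tested, and DESeq2 1.42.0 was an alternative. The fits were tested on simulated data, where changed genes of low counts were often missed, and the pass mark for recovery was lowered after edgeR first failed it. No pair of libraries of a group agreed within sampling noise. All 9 markers were named, and 1 planned list of other genes is not reported here. Further genes were named by rule: the 3 protein-coding genes (mean CPM of at least 1) nearest to a marker called at a time point, and from each further list the gene with the highest mean CPM over the 24 mice and up to 2 called genes with the largest change on day 13. Tsc1 is given as the targeted gene and Gm2164 and Pced1b as overlapping genes. Leaving out the day 13 mice of one number series was chosen after seeing the data. The markers and lists were chosen with earlier results of these data known. The sex of each mouse was not used.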

Additional observations from a re-analysis of the deposited data

Results flagged for a closer look

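Among 54 sets of 4 mice (9 markers in 6 groups), 2 held a mouse far from the other 3, by a gap to the nearest mouse above the critical share of the whole range in Dixon's test. Chance gives about 1 in 20 such sets. Both were Nectin3, at 83.8 CPM in day 8 mouse A and at 72.6 CPM in day 13 mouse C, the latter in a group whose other mice lay within 67.6 to 67.7 CPM.

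Nectin3 lay above the control mean in every day 8 mouse and below it in every day 4 mouse, a difference of 14.4 CPM between the group means. It lay below the control mean in every Rap 4 mouse too, 13.8 CPM under day 8. Neither difference was tested.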

How the results depend on the processing

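Each of the 9 markers in each comparison was recomputed under the alternatives, and the cause of the differences below was not tested. With no minimum fold change, called genes numbered 1054 on day 4, 2519 on day 6, 3331 on day 8, 6696 on day 13 and 892 in Rap 4 mice, and called markers 1 on day 6, 1 on day 8 and 1 in Rap 4 mice. With all 24 mice in one edgeR fit, called genes numbered 29 on day 4, 84 on day 6 and 162 in Rap 4 mice. Between day 13 and day 8 they numbered 1343, with 1 called marker, Wfs1, and DESeq2 called 238 genes there. Between Rap 4 and day 13 that edgeR fit called 5 markers (Fibcd1 and Bok added). The main fit called 3 markers there, against 21.1% of all genes in the main fit. The share of all genes called by the 24-mouse fit is not given here, so its 5 markers have no background to be set against. Fibcd1 on day 13 was called with all 24 mice (-0.88) and with no filter on low counts (-0.90). The letters A to D did not pair the mice (correlations of same-letter deviations from -0.24 to 0.12), and with the letter as a replicate block called genes went from 4101 to 3546 on day 13, Wfs1 lost its call between Rap 4 and day 13 (-0.56), Bok on day 4 turned to -0.00026 and no other call of a marker at both thresholds changed. Scaling to neuron-wide genes moved the all-gene median to -0.10 on day 8, -0.18 on day 13, 0.12 in Rap 4 mice and 0.29 between Rap 4 and day 13. Under it Coch turned to -0.048 on day 13 (0.13 relative to that median), Mpped1 to 0.073 (-0.044) and Bok to 0.021 (-0.095) in Rap 4 mice, Amigo2 to 0.0054 (-0.28) and Nectin3 to 0.13 (-0.15) between Rap 4 and day 13, and Amigo2 to -0.0051 between day 13 and day 8. The calls of Wfs1 (-0.37, relative -0.66) and Pou3f1 (-0.26, relative -0.54) between Rap 4 and day 13 were lost. Fibcd1 was called on day 13 (-1.04, relative -0.86) and between Rap 4 and day 13 (1.03, relative 0.75). Without day 13 mice A and B, chosen after seeing the data and with fewer mice, 2504 genes were called on day 13, 3328 genes and 1 marker between Rap 4 and day 13, and 2 genes between day 13 and day 8; Wfs1 (-0.22) and Nectin3 (0.020) on day 13 and Bok (-0.15) between day 13 and day 8 changed sign. With each mouse left out in turn, called genes ranged over 83 to 211 on day 4, 217 to 429 on day 6 and 586 to 1491 on day 8. They ranged over 2800 to 5305 on day 13, 3608 to 6025 between Rap 4 and day 13 and 0 to 57 between day 13 and day 8. Called markers ranged over 0 to 1 on day 6, 2 to 4 on day 13 and 1 to 4 between Rap 4 and day 13. The fits with 4 called markers, both without day 13 mouse C, called 5046 and 5874 genes. Log2 fold changes that crossed 0 in this way, none of them called, were Bok (-0.049 to 0.077), Coch (-0.041 to 0.33) and Rgs14 (-0.057 to 0.061) on day 4, Coch (-0.21 to 0.16), Fibcd1 (-0.034 to 0.15), Mpped1 (-0.024 to 0.11) and Rgs14 (-0.039 to 0.065) on day 6, Mpped1 (-0.19 to 0.041) on day 8, Coch (-0.058 to 0.31) and Nectin3 (-0.075 to 0.031) on day 13, Bok (-0.15 to 0.019), Coch (-0.39 to 0.027) and Mpped1 (-0.090 to 0.039) in Rap 4 mice, Mpped1 (-0.016 to 0.16) between Rap 4 and day 13, and Coch (-0.35 to 0.084) and Mpped1 (-0.17 to 0.055) between day 13 and day 8. Over the 6 group means in place of 24 mice, 0 of the 3 genes nearest to Pou3f1 and 1 of the 3 nearest to Rgs14 were shared. Among all recomputed values of single markers, 847 kept direction and side of the threshold, 43 changed sign, 13 became called and 15 lost a call.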

Other observations

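Unless another comparison is named, the further marker lists are given on day 13. There the all-gene median was -0.040, and edgeR called 16.5% of all genes. The most abundant gene of a list is that with the highest mean over the 24 mice. Of 6 excitatory neuron genes, 2 were called higher, Neurod2 (log2 fold change 0.89) and the vesicular glutamate transporter gene Slc17a7 (0.73), while Camk2a, the most abundant, was at -0.0090 and the list median at 0.045. Of 10 neuron-wide genes, 2 were called higher (4 called by DESeq2), the tubulin gene Tubb3 (1.00) and the neurofilament gene Nefl (0.67), while Map2, the most abundant, was at 0.13 and the list median at 0.39. Of 6 genes of subiculum, cortex and thalamus, 1 was called higher, the fibronectin gene Fn1 (0.71), which is also the most abundant, and the list median was -0.020. In the choroid plexus, microglia, oligodendrocyte and endothelium lists edgeR and DESeq2 called 0 genes on day 13, with unadjusted p under 0.05 for 0, 0, 0 and 3 genes (40.5% of all genes), and the most abundant were Ttr (-1.15), Csf1r (-0.065), Mbp (-0.18) and Flt1 (0.047), with list medians of -0.60, -0.065, -0.18 and 0.34. Choroid plexus genes summed to 60.6, 1683, 80.5 and 69.4 CPM in controls, highest in mouse B, and 1 of them was at 0 in Rap 4 mouse A. Among the immediate early genes the largest log2 fold changes called were Fos (3.89) and Fosb (2.89), and Arc, the most abundant, was at 1.36. Between Rap 4 and day 13 mice, edgeR called 21.1% of all genes. Called lower there were 5 of 10 neuron-wide genes (list median -0.52) and 5 of 6 immediate early genes (-2.23). So were 3 of 5 astrocyte (-0.59) and 3 of 5 endothelium markers (-0.54), while 6 of 10 dentate markers (0.74) were higher. In Rap 4 mice against controls, 1.41% of all genes were called. Of the lists, 2 of 5 microglia (-0.47), 2 of 5 oligodendrocyte (-0.43) and 2 of 5 astrocyte markers (-0.23) were lower. Called lower as well were 2 of 6 immediate early genes (list median -0.034), 1 of 5 endothelium markers (-0.23) and 1 of 10 dentate markers (0.070).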
